A study of Homo sapiens with 9 samples.

Results

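The control LX2 cells described here were the 3 libraries labelled siNT1, siNT2 and siNT3, chosen by their labels alone out of 9 libraries in 3 groups. LX2 cells are human hepatic stellate cells immortalised with SV40 large T antigen. The labels give them as WT, under cell type, and give hepatic stellate cells under genotype; they stand for a single transformed line, not for the stellate cells of a liver. The cells received 20 nM of non-targeting siRNA by lipofection and grew for 7 days in DMEM with 10% fetal bovine serum, so no untransfected cells enter the description. The design text calls the libraries biological replicates, and nothing says whether they came from separate cultures, so each SD measures the spread between these 3 libraries, which may be technical. The other groups received siRNA against YAP or TAZ and are not used. The question was which matrix, contractile, receptor, cytokine, lineage and metabolic genes these cells transcribed, how highly each ranked, and which family members were missing.

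Hepatic stellate cells are the vitamin A-storing pericytes of the liver sinusoid. In injury they lose their retinoid droplets and turn into contractile, matrix-secreting myofibroblasts, a change called activation, driven by signals such as transforming growth factor beta and platelet-derived growth factor. Cultured lines on stiff plastic in serum are commonly used as a model of the activated state.

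Levels are given as CPM, a gene's counts per 1000000 gene counts of its library, as mean ± SD with n = 3. Longer transcripts collect more reads, so protein-coding genes are ordered and compared by level per exon length, rescaled to the same total per library as CPM (TPM). A rank is the place of that mean TPM among 19338 protein-coding genes outside the mitochondrial genome. A gene is called expressed at 1 CPM or more in each library, absent at 3 counts or fewer in every library, and low in between. Absent genes with any count are said to lie under the floor. The libraries held 17480142, 17802575 and 18114596 gene counts, so that 1 count was worth 0.0552 to 0.0572 CPM and 3 counts 0.166 to 0.172 CPM. For a gene with 0 counts in all libraries, the limit over the summed libraries was 0.0562 CPM, which covers counting error only. Pairs of libraries correlated at r = 0.995 across 14568 genes, which are not independent replicates, and no library stood apart. Mitochondrial transcripts took 1.37% ± 0.110 of gene counts and the 100 most counted genes 15.4% ± 0.115.

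The control cells expressed 13036 of 36601 genes, among them 12157 of the 19338 protein-coding genes (62.9%). At the other end, 4942 protein-coding genes were absent, 3400 of them with 0 counts. The 40 gene lists held 957 genes, of which 551 were expressed. Contractile genes had the fullest expression, 42 of 46 members, and cytokine genes the sparsest, 61 of 176. In between, 111 of 166 receptor genes, 125 of 190 matrix genes, 127 of 194 metabolic genes and 93 of 199 lineage genes were expressed. Receptor, matrix and metabolic genes thus lay near the share over all protein-coding genes, whereas contractile genes lay above it and lineage and cytokine genes below. These shares depend on which genes were listed, and the lists were chosen with earlier results of these data known. The contractile lists hold forms found in many cells, and the lineage lists hold markers of other cell types. The same 62.9% is the background for each single list. The 46 contractile genes supplied 2.94% ± 0.0324 of all TPM and the 190 matrix genes 2.60% ± 0.0294. The 176 cytokine genes supplied 0.859% ± 0.0156.

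**Figure D1:**
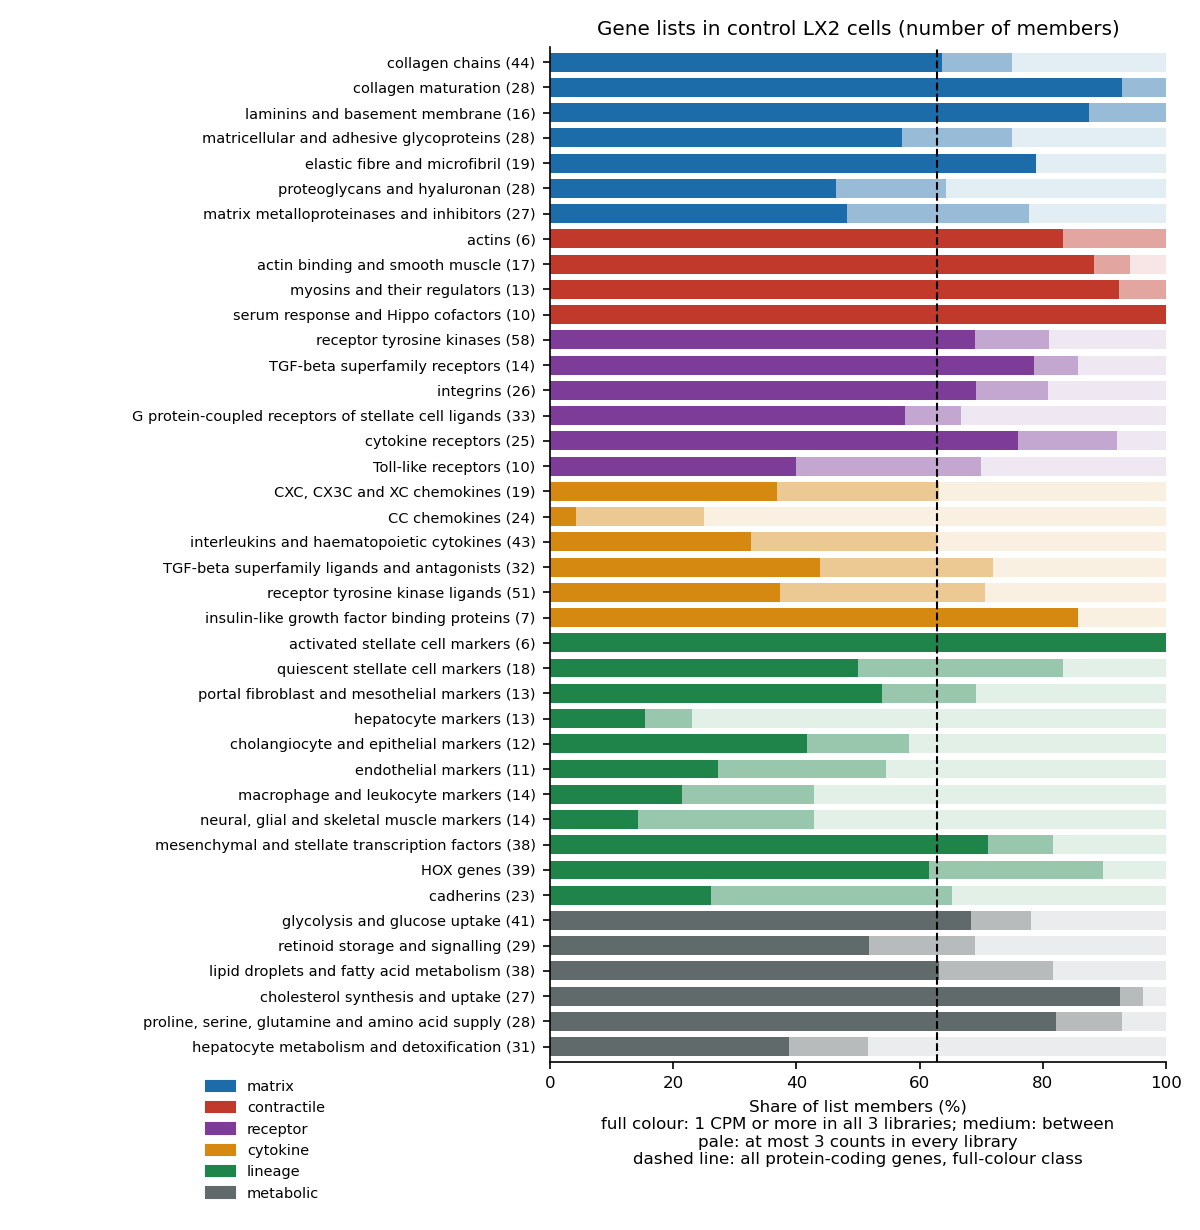
Share of the members of each of the 40 gene lists that were expressed (full colour), low (medium) or absent (pale) in the 3 control libraries; the horizontal axis is in percent and the dashed line marks 62.9%, the share over all protein-coding genes. The contractile lists lie well to the right of the line and the CC chemokines, with 1 of 24 expressed, far to its left.

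The 6 genes listed here as activated stellate cell markers were all expressed, against 62.9% of all protein-coding genes, and spanned a wide range of levels. They were chosen with earlier results of these data known, so their full expression is no evidence of cell state. IGFBP5, a secreted binding protein of insulin-like growth factors, stood at 4316, 4109 and 4093 CPM in siNT1, siNT2 and siNT3 and ranked 8 (2928 ± 101 TPM). COL1A1, the main chain of type I collagen, stood at 4035, 4038 and 4106 CPM and ranked 17 (1869 ± 6.29 TPM). These secreted proteins were therefore among the 20 highest genes by mean TPM. AXL, the receptor tyrosine kinase for GAS6, stood at 1127, 1072 and 1119 CPM and ranked 71 (969.9 ± 25.03 TPM). COL3A1, which forms type III collagen, stood at 1146, 1124 and 1081 CPM and ranked 113 (741 ± 26.7 TPM). PDGFRB, the receptor through which platelet-derived growth factor drives stellate cell growth, followed at a distance with 114, 112 and 112 CPM and rank 3098 (71.3 ± 1.09 TPM). ACTA2, the alpha smooth muscle actin used to stain activated stellate cells, was the lowest with 22.8, 20.3 and 22.5 CPM and rank 5866 (33.2 ± 1.98 TPM). No 2 neighbours in this order by TPM overlapped between libraries. Exons of other genes covered 30.1% of the ACTA2 exon length, and reads in such stretches can be dropped as ambiguous; their part in its low level was not tested. With the length of the longest transcript IGFBP5 ranked 15 and COL1A1 20, and by CPM COL1A1 ranked 7. By CPM siNT1 was the highest library for 5 of the 6 markers and siNT3 for COL1A1.

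In order, the top 20 by TPM included TMSB10, ACTG1, ACTB, EEF1A1, FTL, SPARC, IGFBP5, TMSB4X, YBX1, FLNA, MYL9, HSP90AB1, HSPA8, GAPDH, CAVIN1, COL1A1, LGALS1, CALR and EEF2. TMSB10, a thymosin that binds actin monomers, led with 12130.4 ± 35.2 TPM. CAVIN1, a coat protein of caveolae, ranked 16 with 1741, 1699 and 1723 CPM. Against a median of 31.3 TPM over expressed protein-coding genes and a 99th percentile of 713 TPM, these are the extreme of the distribution.

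Collagen chains supplied 0.705% ± 0.0131 of all TPM, less than the adhesive glycoproteins (0.866% ± 0.00488) and more than any other matrix list. Expressed collagen chain genes numbered 28 of 44, close to the 62.9% of all protein-coding genes, with a median of 31.3 TPM against 31.3 over all expressed genes. By TPM the order was COL1A1, COL5A2, COL3A1, COL6A1, COL5A1, COL4A2, COL6A2 and COL4A1, so that fibrillar, microfibrillar and basement membrane collagens alternated at the top. COL5A2, a chain of the type V collagen that nucleates fibrils, stood at 1549, 1569 and 1494 CPM (932 ± 29.3 TPM). COL6A1, of the beaded filaments around cells, stood at 708, 711 and 693 CPM (596 ± 11.9 TPM). COL4A2, of the basement membrane network, stood at 2176, 2110.2 and 2059 CPM (496 ± 16.7 TPM). COL1A1 alone made up 26.5% ± 0.576 of the collagen TPM.

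Some chains that assemble together differed widely in level. COL1A2, the partner of COL1A1 in the usual type I trimer, stood at 222, 197 and 205 CPM and ranked only 2605 (84.1 ± 5.36 TPM). The per-length ratio of COL1A1 to COL1A2 was 22.3 ± 1.40, with 20.7 in the lowest library and 23.3 in the highest. COL6A3, which joins COL6A1 and COL6A2 in type VI collagen, also lagged: COL6A2 exceeded it 9.42 ± 0.349 times by TPM. By contrast the ratio was 0.830 ± 0.00495 for COL4A1 to COL4A2, 1.34 ± 0.0201 for COL6A1 to COL6A2 and 0.544 ± 0.0172 for COL5A1 to COL5A2. The COL1A1 to COL1A2 ratio thus stood well outside the range of these pairs in every library.

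Among the remaining collagens, COL12A1, a fibril-associated collagen, reached 963 ± 44.5 CPM. COL18A1, the parent of endostatin, reached 438 ± 9.86 CPM. The transmembrane and minor network collagens were lower, down to COL4A4 at 1.87 ± 0.270 CPM. There were 11 absent chains. COL9A1, COL21A1 and COL6A5 had 0 counts in every library, and COL10A1, COL19A1, COL20A1, COL22A1, COL23A1, COL24A1, COL26A1 and COL28A1 had at most 3.

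**Figure D2:**
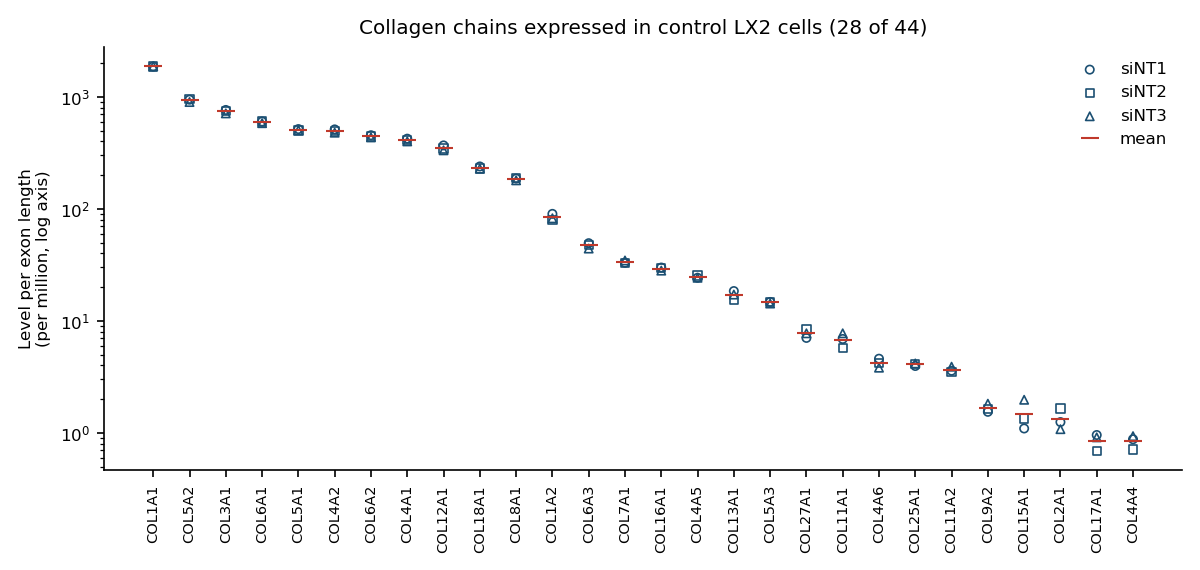
Level per exon length (TPM, log axis) of the 28 expressed collagen chains, ordered by mean; circles, squares and triangles are siNT1, siNT2 and siNT3 and red bars are means. COL1A1 lies highest, COL1A2 is the 12th chain, and the libraries separate visibly only among chains at a few TPM.

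Enzymes that modify, fold and crosslink collagen were expressed almost without gaps, 26 of 28 (92.9%, against 62.9% of all protein-coding genes). Their median was 80.9 TPM. LOXL2, a lysyl oxidase that crosslinks collagen, led with 1498, 1505 and 1504 CPM and rank 48. P4HB, the shared subunit of prolyl hydroxylase and a disulfide isomerase, stood at 786 ± 3.51 CPM. SERPINH1, the collagen chaperone HSP47, stood at 513 ± 12.3 CPM and ranked 396. COLGALT1, PLOD1, PLOD2, PLOD3 and LOX, which glycosylate, hydroxylate or crosslink the chains, all ranked between 374 and 1124. LOX itself had 187 ± 4.56 TPM against 1189.8 ± 7.04 for LOXL2. The members not expressed were PCOLCE2 and TLL2, both above the floor.

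Of the laminin and basement membrane genes, 14 of 16 were expressed (87.5%, against 62.9% of all protein-coding genes). LAMC1, the gamma chain common to most laminins, led with 875, 883 and 858 CPM, followed in TPM order by LAMB1, LAMB2, NID1 and AGRN. LAMB1 had 0.498 ± 0.00638 times the TPM of LAMC1. The alpha chains, which carry the cell-binding ends, were lower: LAMA5 was the highest with 182 ± 5.22 CPM, ahead by TPM of LAMA4 at 48.1 ± 7.31 and LAMA1 at 59.6 ± 3.74 CPM. LAMB3 at 66.3 ± 1.74 CPM and the proteoglycan HSPG2 at 172 ± 6.39 CPM completed the leading 8. LAMC3 and LAMB4 were low and no member was absent.

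SPARC, a collagen-binding matricellular protein, was the highest glycoprotein at 3176, 3190.0 and 3206 CPM (rank 7). CCN1 and CCN2, secreted proteins much used as readouts of YAP and TAZ, ranked 23 and 116, with 913, 911 and 974 CPM for CCN1 and 363, 373 and 389 CPM for CCN2. FN1, fibronectin, had 4916, 4588 and 4648 CPM and rank 45. THBS2, TGFBI, THBS1 and TNC completed the leading 8, between 1032 ± 16.1 CPM for THBS2 and 635 ± 32.1 CPM for TNC. In all 16 of 28 matricellular and adhesive glycoproteins were expressed (57.1%, against 62.9% of all protein-coding genes). Periostin (POSTN), a marker of many fibroblasts, stood at 14.9, 14.8 and 14.3 CPM, and osteopontin (SPP1) at 0.858, 0.955 and 1.16 CPM fell short of the threshold. SMOC1, SMOC2, TNN and TNR had 0 counts, and COMP, CCN6 and SPARCL1 were under the floor.

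The fibrillin genes FBN1 and FBN2 were expressed and the gene of elastin was absent. FBN1, which builds microfibrils, stood at 931, 888 and 874 CPM (rank 644), and FBLN2 at 224 ± 8.76 CPM. EFEMP2, EFEMP1, FBN2, LTBP4, LTBP3 and FBLN1 followed in TPM order, from 114 ± 3.02 CPM for EFEMP2 to 54.7 ± 1.10 CPM for FBLN1. ELN, the gene of elastin itself, FBN3 and MFAP2 had 0 counts, and MFAP5 was under the floor. Expressed members were 15 of 19 (78.9%, against 62.9% of all protein-coding genes).

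Among proteoglycans the membrane-bound kinds led. SDC4 at 241 ± 2.40 CPM, GPC1 at 444 ± 9.19 CPM, SDC1 at 178 ± 3.73 CPM and CSPG4 (NG2) at 342 ± 9.02 CPM were ahead by TPM, followed by SDC2 and SDC3. The small leucine-rich proteoglycans of connective tissue were sparse: biglycan (BGN) reached 8.24, 7.19 and 5.58 CPM, lumican (LUM) 5.61, 3.99 and 3.42 CPM and decorin (DCN) only 0.286, 0.449 and 0.221 CPM. VCAN, the large hyaluronan-binding versican, stood at 39.9 ± 2.68 CPM. Expressed members were 13 of 28, a smaller share than over all protein-coding genes. GPC3, OMD, FMOD, EPYC and KERA had 0 counts, and HAS1, OGN, ASPN, NCAN and GPC4 at most 3.

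The 3 leading inhibitors of matrix proteinases exceeded every proteinase of the list by TPM. TIMP2 had 777, 808 and 785 CPM (rank 160), TIMP3 424 ± 19.7 CPM and TIMP1 120.3 ± 4.94 CPM, while TIMP4 was low. The leading proteinase was MMP1, the interstitial collagenase, at 84.3, 77.1 and 78.6 CPM (rank 987). MMP14, the membrane-type activator of MMP2, followed at 158 ± 3.59 CPM, and MMP2, a gelatinase, at 104 ± 11.95 CPM. MMP15 and MMP19 were the next 2, at 32.4 ± 1.19 and 31.2 ± 2.003 CPM. Expressed members were 13 of 27 (48.1%, against 62.9% of all protein-coding genes). MMP8, MMP12, MMP26 and MMP27 had 0 counts, and MMP10 and MMP13 were under the floor.

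By TPM the cytoplasmic actins led the contractile genes, followed by the myosin light chain MYL9 and the non-muscle heavy chain MYH9. The smooth muscle accessory proteins TAGLN and CNN1 stood further down. The cytoplasmic actins ACTG1 and ACTB ranked 2 and 3, with 4289, 4285 and 4411 CPM for ACTG1 and 5017, 4960.4 and 5190.3 CPM for ACTB. Their TPM values, 6537 ± 65.6 and 6494 ± 114, overlapped between libraries. ACTG2, the gamma smooth muscle actin of visceral muscle, stood at 101, 90.5 and 107 CPM and exceeded ACTA2 by TPM (118 ± 9.51 against 33.2 ± 1.98) in every library. ACTA2 made up 0.252% ± 0.0134 of the TPM of the 6 actins, or 0.383% with the length of the longest transcript. ACTB and ACTG1 together exceeded it 393 ± 21.3 times. Cardiac ACTC1 reached 2.83 ± 0.276 CPM and skeletal ACTA1 0.600 ± 0.174 CPM, below the threshold.

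Serum response factor, which acts on actin genes, binds a sequence called the CArG box. It was searched on both strands of RefSeq promoter windows (GRCh38.p14, 250 bases before to 50 after each start), where 1.29% of 35116 windows held it. Only CC, 6 letters of A or T, and GG counted as a box, so boxes with any other letter were missed. Windows existed for 5 of the 6 actins, ACTB having none, and 4 of the 5 held a box (ACTA1, ACTC1, ACTG1 and ACTG2). ACTA2 held no exact match, which leaves boxes with a mismatch open. A gene counted if any of its windows held a box, so its share and that over windows are not counted alike. ACTG1 and ACTG2 are shown as the most abundant actin with a window and the leading smooth muscle actin; CArG boxes are in capitals. ACTG1 lies at chr17:81512750-81513049 on the minus strand and has 1 box, starting 94 bases before the start, and ACTG2 at chr2:73892758-73893057 on the plus strand and has 2, starting 110 and 73 bases before.
ACTG1: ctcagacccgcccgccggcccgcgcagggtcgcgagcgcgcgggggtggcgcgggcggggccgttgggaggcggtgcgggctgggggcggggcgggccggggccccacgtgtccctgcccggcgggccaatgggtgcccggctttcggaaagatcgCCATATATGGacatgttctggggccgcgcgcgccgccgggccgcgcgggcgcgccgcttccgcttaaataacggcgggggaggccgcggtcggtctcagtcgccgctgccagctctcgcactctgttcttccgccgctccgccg
ACTG2: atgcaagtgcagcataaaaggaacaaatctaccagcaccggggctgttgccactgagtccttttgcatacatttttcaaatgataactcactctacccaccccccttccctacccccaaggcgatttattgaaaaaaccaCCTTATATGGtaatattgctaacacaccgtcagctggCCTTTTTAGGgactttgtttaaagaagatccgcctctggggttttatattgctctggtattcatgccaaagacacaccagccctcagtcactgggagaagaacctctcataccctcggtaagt
Both windows carry the letters of the box, and the levels of the genes differed widely, 6537 ± 65.6 TPM for ACTG1 against 118 ± 9.51 TPM for ACTG2. A match describes letters in a window and no binding.

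For CCN2, whose transcript is a usual readout of YAP, the motif GGAATG bound by TEAD factors was searched likewise. It occurred in 14.03% of all windows. Of the 21 glycoprotein genes that had windows, 9 held it in any of their windows. The first share is over windows and the second over genes, so they are not counted alike. The CCN2 window, chr6:131951323-131951622 on the minus strand, held 3 copies (capitals), starting 169, 104 and 95 bases before the start.
CCN2: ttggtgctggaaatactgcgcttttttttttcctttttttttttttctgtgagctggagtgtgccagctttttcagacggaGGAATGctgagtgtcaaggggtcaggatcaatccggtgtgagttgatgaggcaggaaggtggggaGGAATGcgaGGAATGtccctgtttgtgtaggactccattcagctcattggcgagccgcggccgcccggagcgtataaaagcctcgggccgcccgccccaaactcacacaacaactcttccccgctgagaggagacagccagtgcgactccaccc

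Of the actin-binding genes, 15 of 17 were expressed (88.2%, against 62.9% of all protein-coding genes). By TPM, TAGLN2, TPM4 and CNN3, forms found in many non-muscle cells, led with ranks 60, 62 and 90. By CPM, TPM4, CALD1 and TPM1 led with ranks 17, 30 and 33, ahead of TAGLN2 (168) and CNN3 (206). The order in this list thus depends on scaling by exon length. TAGLN (SM22), a smooth muscle protein also made by myofibroblasts, ranked 165 with 549.9, 536 and 554 CPM. Its rank was next to those of TPM2 (164) and CALD1 (166), and the TPM of the 3 overlapped between libraries. CNN1, the calponin of mature smooth muscle, stood lower at 55.4, 54.0 and 55.1 CPM (rank 2545). VIM, the intermediate filament of mesenchymal cells, had 517 ± 7.49 CPM, with 24.4% of its exon length covered by other genes. DES, the intermediate filament of muscle, was at 0, 0.786 and 0 CPM, and TAGLN3, a neuronal form, was under the floor.

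Of the myosins and their regulators, 12 of 13 were expressed (92.3%, against 62.9% of all protein-coding genes). MYL9, the regulatory light chain, ranked 12 with 1464, 1438 and 1531 CPM, and MYH9, a non-muscle heavy chain, ranked 21 with 3444, 3517 and 3579.6 CPM. MYH9 exceeded MYH10 by TPM 8.66 ± 0.234 times. MYH11, the smooth muscle heavy chain, was at 1.37, 1.80 and 0.607 CPM, below 1 CPM in siNT3. MYL12B, RHOA, MYL6, MYL12A and MYLK were among the leading 8, with 734 ± 9.91 CPM for RHOA, the switch of stress fibre contraction, and 686 ± 25.1 CPM for MYLK, the light chain kinase.

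All 10 members of the list of serum response and Hippo cofactors were expressed, against 62.9% of all protein-coding genes. YAP1 had 205, 207 and 199.5 CPM and WWTR1 (TAZ) 64.2, 62.6 and 54.4 CPM, a per-length ratio of 4.53 ± 0.329. TEAD4 (62.5 ± 2.78 CPM), TEAD3 (78.0 ± 8.60 CPM) and TEAD1 (240.3 ± 7.42 CPM) preceded TEAD2 (17.3 ± 1.48 CPM) by TPM. SRF had 93.5 ± 4.17 CPM, MRTFA 54.7 ± 1.54 and MRTFB 50.3 ± 2.28 CPM. MYOCD, the cofactor of heart and smooth muscle, was also expressed, at 55.5, 49.5 and 49.3 CPM (rank 6749).

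**Figure D3:**
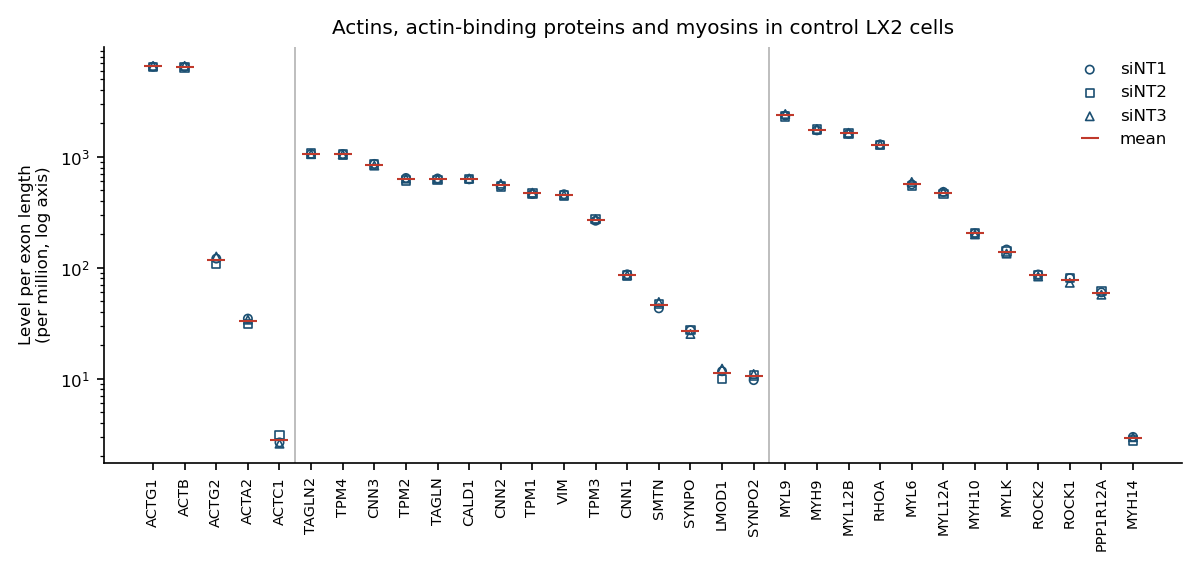
Level per exon length (TPM, log axis) of the expressed actins (left), actin-binding and smooth muscle genes (middle) and myosins with their regulators (right) in siNT1 (circles), siNT2 (squares) and siNT3 (triangles), with means as red bars. ACTG1 and ACTB sit far above ACTG2 and ACTA2.

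Of the receptor tyrosine kinases, 40 of 58 were expressed (69.0%), near the 62.9% of all protein-coding genes. Their median was 24.3 TPM, against 31.3 over all expressed protein-coding genes. AXL stood first by a wide margin, at 969.9 ± 25.03 TPM against 174 ± 6.32 TPM for the next, the ephrin receptor EPHA2 (159.7, 165 and 155 CPM). PTK7, FGFR1, MET, PDGFRB, DDR2 and RYK followed in TPM order. FGFR1, a fibroblast growth factor receptor, had 284 ± 3.86 CPM, MET, the receptor for hepatocyte growth factor, 136 ± 6.01 CPM, and DDR2, which binds fibrillar collagen, 164 ± 4.34 CPM. PDGFRA, the other platelet-derived growth factor receptor, reached 4.58, 3.31 and 3.92 CPM, and PDGFRB exceeded it by TPM 39.6 ± 6.03 times. KDR, a main receptor for VEGFA in endothelium, was expressed at 1.26 ± 0.253 CPM. Its relatives FLT1 and FLT4 had 86.8 ± 4.87 and 6.07 ± 1.56 CPM. EPHA3, EPHA6, EPHA7, ERBB4, FGFR2, FLT3 and NTRK2 had 0 counts, and MUSK, EPHA8 and EPHA10 were under the floor.

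Of the receptors for the transforming growth factor beta family, 11 of 14 were expressed (78.6%, against 62.9% of all protein-coding genes). TGFBR2 (197, 187 and 193 CPM), the co-receptor ENG (158, 147 and 147 CPM) and TGFBR1 (159.9, 171 and 164 CPM) led, ahead by TPM of BMPR2, ACVR1, ACVR1B, BMPR1A and TGFBR3. BMPR1B was under the floor and AMHR2 had 0 counts.

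ITGB1, the beta subunit shared by most collagen, laminin and fibronectin receptors, ranked 22 with 2289, 2345 and 2278 CPM. It exceeded the other beta integrins summed 10.7 ± 0.566 times by TPM. ITGA3, a laminin receptor chain, had 682 ± 9.56 CPM and ITGA5, of the fibronectin receptor, 526 ± 7.40 CPM. ITGAV (179 ± 14.97 CPM), ITGB5 (126 ± 4.26 CPM), ITGA6 (103 ± 4.80 CPM), ITGB3 (62.0 ± 5.89 CPM) and ITGA7 (45.5 ± 2.65 CPM) completed the leading 8. For ITGB3, 50.7% of 50-base exon windows recur in other genes, so its count is uncertain. ITGA11, a collagen receptor of fibroblasts, had 58.8 ± 4.03 CPM. In all 18 of 26 integrins were expressed (69.2%, against 62.9% of all protein-coding genes). ITGAD had 0 counts, and ITGB6, ITGA8, ITGA9 and ITGAL were under the floor.

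Of the chosen G protein-coupled receptors of stellate cell ligands, 19 of 33 were expressed, near the 62.9% over all protein-coding genes. The expressed ones had a median of 7.40 TPM against 31.3 over all expressed genes. F2R, a thrombin receptor, led with 96.97, 98.4 and 108 CPM, followed in TPM order by ADORA2B, LPAR1, S1PR3, S1PR5, PTGER4, PTGER2 and S1PR1. LPAR1, a receptor for lysophosphatidic acid, had 53.0 ± 1.44 CPM and S1PR3, for sphingosine 1-phosphate, 51.7 ± 1.73 CPM. The receptors of endothelin, angiotensin and cannabinoids were scarce. EDNRA, an endothelin receptor, was at 2.06, 1.57 and 1.99 CPM and AGTR1, the angiotensin receptor, at 0.744, 0.393 and 0.552 CPM. EDNRB, AGTR2, CNR2, CXCR3, ADORA3 and PTGER3 had 0 counts, and CNR1, S1PR4, LPAR3 and LPAR5 at most 3.

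Of the cytokine receptors, 19 of 25 were expressed (76%, against 62.9% of all protein-coding genes). IL6ST (gp130), the signalling chain shared by the interleukin-6 family, ranked 443 with 712, 709.7 and 669 CPM. OSMR, its partner for oncostatin M, followed at 369, 370.3 and 350.1 CPM, and LIFR, the partner for leukaemia inhibitory factor, had 138 ± 8.43 CPM. IL6R, which binds interleukin-6 itself, was at 8.08 ± 0.981 CPM. TNFRSF1A, IL13RA1, IFNAR1, TNFRSF1B and IFNGR1 were the other leading members, from 156 ± 1.59 CPM for IFNAR1 to 44.6 ± 0.791 CPM for IFNGR1. IL1R2 and IL13RA2, known as decoy receptors, were under the floor.

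Of the Toll-like receptors, 4 of 10 were expressed (40%, against 62.9% of all protein-coding genes). TLR4, the receptor for endotoxin, had 39.1, 33.6 and 36.8 CPM, TLR3 5.95 ± 1.23, TLR6 2.06 ± 0.346 and TLR1 1.35 ± 0.272 CPM. TLR2 (0.922 ± 0.427 CPM), TLR5 (0.301 ± 0.120 CPM) and TLR7 (0.205 ± 0.0826 CPM) were low, TLR9 and TLR10 under the floor, and TLR8 had 0 counts.

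CC chemokines formed the emptiest family. CCL2, which draws monocytes, was the sole expressed gene (1 of 24, against 62.9% of all protein-coding genes). It stood at 24.2, 20.3 and 19.2 CPM. CCL5 stood at 1.77, 0.618 and 0.662 CPM, CCL26 at 1.32, 0.674 and 0.828 CPM and CCL7 at 0.915, 0.843 and 0.718 CPM. 13 members had 0 counts, among them CCL1, CCL3, CCL13, CCL14, CCL15, CCL16, CCL18 and CCL19, and 5 others were under the floor. Of the CXC and related chemokines, 7 of 19 were expressed (36.8%). CXCL12, the ligand of CXCR4, led with 330.2, 329 and 323 CPM (rank 666), far ahead of the neutrophil attractants CXCL8 at 36.3, 28.98 and 30.1 CPM and CXCL1 at 18.4, 17.0 and 18.4 CPM. CXCL6 (6.26 ± 0.573 CPM), CXCL5 (4.92 ± 0.388 CPM), CXCL16 (5.36 ± 0.362 CPM) and CXCL2 (2.05 ± 0.613 CPM) were near the lower end. CXCL9, CXCL13, PF4, XCL1 and XCL2 had 0 counts and PPBP and CXCL17 were under the floor.

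Of the interleukins and haematopoietic cytokines, 14 of 43 were expressed (32.6%, against 62.9% of all protein-coding genes). IL32, a cytokine of human cells lacking a mouse counterpart, led with 101, 99.6 and 105 CPM. IL1B, best known from macrophages, came next at 57.6, 61.6 and 57.0 CPM (rank 2550), while IL1A stood at 2.34 ± 0.214 CPM. IL11, a fibroblast cytokine of the gp130 family, had 26.6, 22.3 and 28.0 CPM, CLCF1 11.0 ± 0.930 CPM, IL6 8.17 ± 1.42 CPM and LIF 14.7 ± 1.86 CPM. CSF1, the growth factor of macrophages, had 49.3 ± 3.58 CPM, and CSF2 1.95 ± 0.542 CPM. IFNB1, IFNG, IL2, IL3, IL5, IL9, IL10 and IL17A were among 11 members with 0 counts, and IL4, IL12B, IL13, IL33 and TNF were under the floor, TNF with 0, 0 and 2 counts in the 3 libraries.

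Of the ligands and antagonists of the transforming growth factor beta family, 14 of 32 were expressed, against 62.9% of all protein-coding genes. FSTL1, a secreted follistatin-like protein, ranked 30 with 2825, 2832 and 2841 CPM. GREM1, an antagonist of bone morphogenetic proteins, ranked 419 with 1146, 1109 and 1167 CPM. TGFB2 had 364, 345 and 357 CPM and preceded TGFB1, at 123, 114 and 114 CPM, by TPM, while TGFB3 was low (0.858, 1.52 and 1.601 CPM). FSTL3, MSTN, FST and INHBA completed the leading 8. MSTN, myostatin, known as a brake on skeletal muscle growth, had 39.4, 37.1 and 44.5 CPM. BMP10 had 0 counts, and INHBC, NODAL, BMP2, BMP3, BMP5, BMP6, BMP7 and GDF10 were under the floor, whereas BMP4 had 22.1 ± 4.03 CPM.

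Of the ligands of receptor tyrosine kinases, 19 of 51 were expressed (37.3%, against 62.9% of all protein-coding genes). HBEGF, a ligand of the epidermal growth factor receptor, led with 117, 113 and 120.0 CPM, followed in TPM order by VEGFB, VEGFC, GAS6, PDGFC, FGF2 and FGF1. GAS6, the ligand of AXL, had 147, 138 and 142 CPM, so that receptor and ligand were both transcribed. PDGFC, PDGFA and PDGFB had 76.7 ± 3.70, 21.9 ± 1.5 and 15.1 ± 1.017 CPM, and PDGFD was below the threshold (1.18 ± 0.520 CPM). HGF, made by quiescent stellate cells, was at 1.49, 0.899 and 1.49 CPM. IGF1 and FGF3, FGF4, FGF6, FGF10, FGF16, FGF19, FGF21 and FGF23 had 0 counts, and 6 others were under the floor. Other genes overlap 82.4% of the exon bases of IGF1, so its 0 is uncertain.

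Of the binding proteins of insulin-like growth factors, 6 of 7 were expressed (85.7%, against 62.9% of all protein-coding genes). IGFBP5 made up 73.1% ± 0.333 of their summed TPM. IGFBP4 had 259, 260.4 and 255 CPM, IGFBP7 124 ± 6.83, IGFBP6 65.9 ± 1.11, IGFBP3 27.8 ± 1.81 and IGFBP2 6.78 ± 0.725 CPM. IGFBP1, the hepatocyte form, had 0 counts.

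The summed CPM of the activated stellate cell markers exceeded that of each other marker list, and IGFBP5, COL1A1, AXL and COL3A1 carried the sum. PDGFRB and ACTA2 had fewer CPM than KRT18, KRT8, THY1 and the quiescent marker ECM1. The list members were chosen with earlier results of these data known, so the order of the sums is no evidence of cell state. These sums are not scaled by exon length. In bulk RNA, fewer cells of a type and less RNA per cell cannot be told apart, which holds for every summed level here. The summed level of the 6 activated markers was 10475 to 10760.4 CPM. The 18 quiescent markers summed to 191 to 197 CPM, with 9 of 18 expressed (50%, against 62.9% of all protein-coding genes). ECM1, a secreted matrix protein, gave most of it with 118, 119 and 116 CPM, and BAMBI, a decoy receptor of transforming growth factor beta lost on activation, had 27.4, 24.4 and 21.7 CPM. LHX2, a transcription factor of quiescent stellate cells, had 15.5, 14.4 and 15.5 CPM, NGFR 12.4 ± 1.28, PTH1R 8.38 ± 0.575, HAND2 4.31 ± 0.614, RGS5 3.87 ± 0.301, RELN 2.89 ± 0.730 and PPARG 1.11 ± 0.0385 CPM.

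LRAT, which esterifies retinol for storage and is a defining gene of quiescence, had 0 counts. ANGPTL6 was under the floor. GFAP (0.487 ± 0.162 CPM), DES (0.262 ± 0.454 CPM), COLEC10 (0.897 ± 0.153 CPM), COLEC11 (0.316 ± 0.192 CPM) and VIPR1 (1.54 ± 0.620 CPM) were low.

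Portal fibroblast and mesothelial markers summed to 148 to 153 CPM, with 7 of 13 expressed (53.8%, against 62.9% of all protein-coding genes). THY1, which marks portal fibroblasts and many cultured fibroblasts, supplied most of the sum at 131, 130.0 and 124 CPM. WT1, a mesothelial transcription factor, had 10.2 ± 0.917 CPM. GLI1 (3.96 ± 0.524 CPM), CD34 (2.23 ± 0.773 CPM), MSLN (2.09 ± 0.824 CPM), CALB2 (1.99 ± 0.811 CPM) and MFAP4 (1.42 ± 0.297 CPM) were near the threshold, LRRN4 and PDPN were low, ENTPD2 and UPK3B were under the floor, and ELN and GPC3 had 0 counts.

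Hepatocyte markers were close to nothing, 4.47 to 5.90 CPM summed over 13 genes. ALB, APOA1, APOB, TTR, FGB and AHSG had 0 counts, and HNF4A, CYP3A4 and TF were under the floor. ASGR1 (2.80, 3.88 and 1.93 CPM) and SERPINA1 (1.95, 1.69 and 1.88 CPM) were the only expressed members of this list, and CYP2E1 was low.

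Cholangiocyte and epithelial markers summed to 657 to 664 CPM, but almost all of it came from 3 genes. These were the simple-epithelium keratins KRT18 (323, 322 and 323 CPM) and KRT8 (288, 282 and 287 CPM) and the transcription factor SOX9 (49.4, 47.3 and 46.6 CPM). CLDN4 (2.47 ± 0.439 CPM) and KRT7 (1.76 ± 0.381 CPM) were just above the threshold, EPCAM (0.225 ± 0.0589 CPM) and CDH1 (0.112 ± 0.112 CPM) low, KRT19, CFTR and GRHL2 under the floor, and ESRP1 at 0 counts. The keratin pair was thus expressed while the adhesion genes EPCAM and CDH1 were low.

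Endothelial markers summed to 48.0 to 53.1 CPM, of which TIE1, an orphan receptor of endothelial cells, held most with 44.5, 39.0 and 45.4 CPM. CDH5 had 5.08 ± 0.608 CPM and ESAM 1.39 ± 0.198 CPM. PECAM1, VWF and STAB2 were low, ERG, EMCN and STAB1 under the floor, and the sinusoidal genes LYVE1 and CLEC4G at 0 counts. Macrophage and leukocyte markers summed to 32.9 to 36.3 CPM, with CD68 at 21.7 ± 0.898, CD14 at 9.70 ± 0.960 and PTPRC at 2.53 ± 0.413 CPM. For CD68, 74.3% of exon windows recur in other genes. LYZ, MARCO and FCER1G were low, CD163, C1QA, C1QB and CD5L under the floor, and SPI1, TYROBP and CD3E at 0 counts. Neural, glial and skeletal muscle markers summed to 112 to 118 CPM from the tubulin TUBB3 (67.7 ± 4.06 CPM) and MBP (44.5 ± 0.788 CPM), while PAX3, PAX7, MYF5, MYOD1, MYOG and S100B had 0 counts, SOX10 and CHGA were under the floor, and NEFL, SYP and CKM were low.

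**Figure D4:**
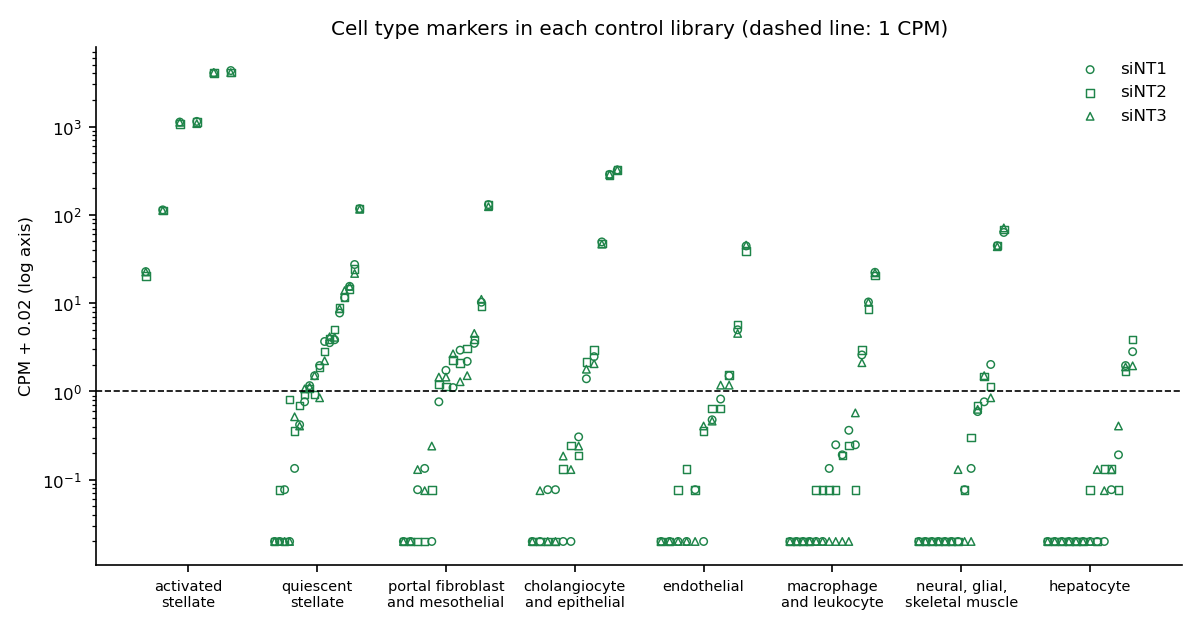
CPM plus 0.02 (log axis) of each marker gene in each control library, by cell type; each column of points is a gene, the symbols are siNT1 (circle), siNT2 (square) and siNT3 (triangle), and the lowest row holds genes with 0 counts in that library. IGFBP5, COL1A1, AXL and COL3A1 lie highest, PDGFRB and ACTA2 lie within the range of other lists, and 6 hepatocyte genes lie at 0 in all 3 libraries.

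Of the transcription factors of mesenchyme and stellate cells, 27 of 38 were expressed (71.1%, against 62.9% of all protein-coding genes). NR2F2, an orphan nuclear receptor of mesenchyme and veins, led with 536, 510.1 and 536 CPM (rank 397), followed in TPM order by NR2F1, TWIST2, TBX3, FOXF1, RUNX1, SNAI2 and GATA4. FOXF1, needed for stellate cell activation in mouse liver, had 45.8 ± 2.73 CPM. GATA4, described as a guardian of stellate cell quiescence, had 40.3, 39.5 and 37.2 CPM, and GATA6 3.50 ± 0.547 CPM. TCF21, a transcription factor of quiescent stellate cells, and TBX5 had 0 counts, and PRRX1, EBF1, MEOX2, TBX15 and SOX11 at most 3.

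HOX genes record the position of a cell's origin along the body axis. In all 24 of 39 were expressed (61.5%), near the 62.9% of all protein-coding genes. The clusters differed: 9 of 9 HOXC genes and 8 of 10 HOXB genes were expressed, against 6 of 11 HOXA genes and 1 of 9 HOXD genes. HOXB7 led with 32.7, 32.3 and 31.2 CPM, followed in TPM order by HOXB9, HOXB2, HOXC8, HOXB4, HOXC9, HOXC4 and HOXB3. The only expressed HOXD gene was HOXD10 at 3.72, 4.77 and 5.02 CPM. Genes of the most posterior groups, 12 and 13, were expressed in 4 of 6 cases, with HOXC13 at 9.84, 11.4 and 10.1 CPM, HOXC12 at 9.95, 8.99 and 8.61 CPM and HOXB13 at 7.89, 6.68 and 7.07 CPM. HOXB1 had 0 counts, and HOXD1, HOXD3 and HOXD12 were under the floor. For HOXA7, HOXC5, HOXD3 and HOXD4 over 50% of exon bases or windows were shared, so their classes are uncertain.

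**Figure D5:**
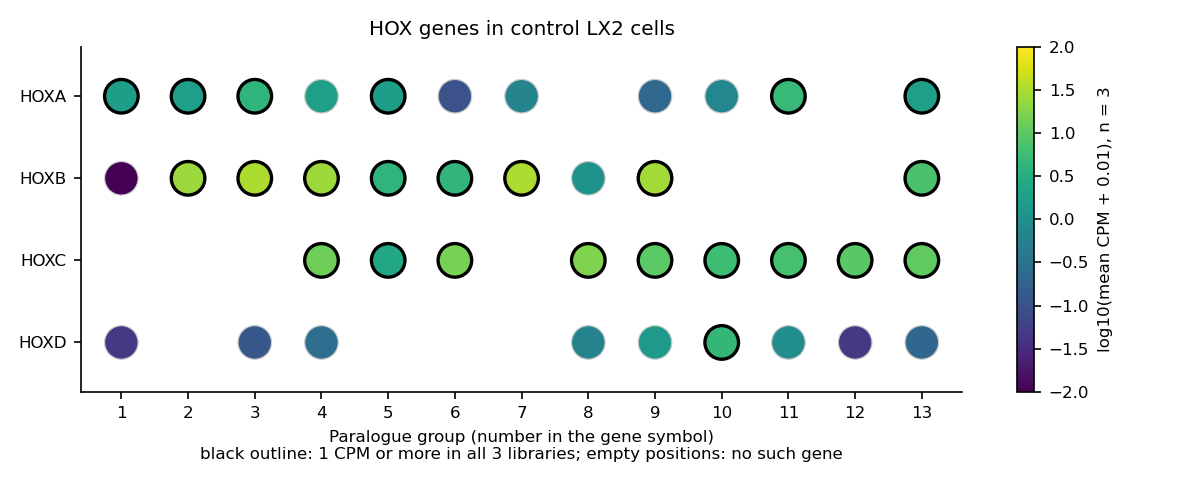
Log10 of mean CPM plus 0.01 of the 39 HOX genes, by cluster (rows) and paralogue group (columns); a black outline marks genes at 1 CPM or more in all 3 libraries. Outlines fill the HOXC row and most of HOXB, and a single HOXD gene carries one.

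Of the cadherins, 6 of 23 were expressed (26.1%, against 62.9% of all protein-coding genes). N-cadherin (CDH2), of mesenchymal and neural cells, led with 292, 269.6 and 275 CPM (rank 641), followed in TPM order by CDH4, CDH24, CDH13, CDH11 and CDH5. CDH11, the cadherin of fibroblasts, had 53.8 ± 3.90 CPM. E-cadherin (CDH1) had 0, 4 and 2 counts. CDH7, CDH8, CDH9, CDH16, CDH19 and CDH20 had 0 counts, and CDH12 and CDH22 were under the floor.

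Of the glycolysis and glucose uptake genes, 28 of 41 were expressed (68.3%), near the 62.9% of all protein-coding genes. General isoforms were among the highest genes. GAPDH ranked 15, TPI1 31, ENO1 43 and PKM 44, with 2373, 2289 and 2344 CPM for PKM. LDHB exceeded LDHA by TPM, at a ratio of LDHA to LDHB of 0.458 ± 0.0129. This ratio was not recomputed with other lengths, and its SD does not cover that choice. SLC2A1, the common glucose transporter, had 107 ± 1.64 CPM. The liver isoforms SLC2A2 and PKLR had 0 counts, as did GAPDHS, LDHC, PGAM2 and PGK2, and HK3 was under the floor. ALDOA was listed at only 0.973, 1.01 and 1.05 CPM, but 53.5% of its exon bases overlap other genes and reads there can be lost as ambiguous, so its level cannot be read from these counts.

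Of the retinoid genes, 15 of 29 were expressed (51.7%, against 62.9% of all protein-coding genes). The retinoic acid receptors were expressed and the storage gene LRAT was absent. RDH11, a retinal reductase, had 148, 152 and 147 CPM, followed in TPM order by the receptors RXRB, RARA and RARG, then CRABP2, RXRA, DGAT1 and RARB. Synthesis of retinoic acid was represented by ALDH1A3 (15.2 ± 1.67 CPM) and ALDH1A2 (3.02 ± 0.375 CPM), while ALDH1A1 had 0 counts. LRAT, RBP2, RPE65, CYP26A1 and DHRS9 also had 0 counts, and CRABP1 and RXRG were under the floor.

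Of the lipid genes, 24 of 38 were expressed (63.2%), near the 62.9% of all protein-coding genes. The synthesis enzymes ACLY (596, 589.6 and 583 CPM), SCD (476, 485 and 452 CPM) and FASN (391, 382 and 391 CPM) stood high, together with ACSL4, PLIN3, ACSL3, PPARD and SCD5. PLIN3, the widespread droplet coat protein, had 104 ± 1.83 CPM and PLIN2 20.8 ± 2.39 CPM, whereas the adipocyte form PLIN1 was at 0.225 ± 0.0973 CPM. FABP1, FABP2, FABP4, FABP7 and CIDEB had 0 counts, and FABP6 and CIDEA were under the floor.

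Nearly every gene of cholesterol synthesis and uptake was expressed, 25 of 27 (92.6%, against 62.9% of all protein-coding genes). Their median was 94.8 TPM. CYP51A1, MSMO1, DHCR7, HMGCS1, INSIG1, SQLE and SREBF2 were among the highest by TPM, in this order, with 78.6% of CYP51A1 exon windows recurring in other genes. SQLE, an oxygen-dependent enzyme of the pathway, had 139, 141 and 125 CPM. IDI2 had 0 counts and the exporter ABCG1 was low (1.34 ± 0.536 CPM), beside ABCA1 at 55.8 ± 3.31 CPM.

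Of the genes of proline, serine and glutamine supply, 23 of 28 were expressed (82.1%, against 62.9% of all protein-coding genes). The glutamine carrier SLC38A2 led with 718, 665 and 673 CPM, followed in TPM order by PSAT1, GOT2, SHMT2, SLC1A5, SLC3A2 and GLUD1. For proline, abundant in collagen, the synthesis genes ALDH18A1 (89.5 ± 0.252 CPM) and PYCR1 (55.9 ± 1.66 CPM) were expressed while PRODH, which breaks proline down, had 0 counts. GLS2 was under the floor, with shared exons. ASNS was listed at 0.769 ± 0.286 CPM, with 44.6% of its exon bases overlapped by other genes.

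Of the hepatocyte metabolism genes, 12 of 31 were expressed (38.7%, against 62.9% of all protein-coding genes). GSTP1, a glutathione transferase of non-hepatocyte cells, led with 269.7, 272 and 276 CPM, followed in TPM order by ADH5, ASL, CPS1, PCK2, ALDH2, ARG2 and ASS1. CPS1, the entry enzyme of the urea cycle and a hepatocyte marker in tissue, had 108, 113 and 101 CPM (rank 4695). OTC, the next enzyme of that cycle, had 0 counts, and ARG1, the last, 0, 2 and 0 counts. ADH1A, ADH1B, ADH1C, ADH4, CYP7A1, G6PC1, GSTA1 and GSTM1 were among 10 members with 0 counts. Of the urea cycle, CPS1, ASS1 (6.46 ± 0.682 CPM) and ASL (62.3 ± 2.40 CPM) were thus expressed while OTC and ARG1 were absent.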

How the data were processed

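The 3 RNA-seq libraries of control LX2 cells (siNT1, siNT2 and siNT3) were analysed, and the other 6 libraries were not used. The deposited values are raw counts per Ensembl gene with no normalization, 1 library per file. Per the submitters' processing notes, the tools were STAR 2.5.0c and HTSeq, with Trim Galore, Picard and SAMtools also listed, without roles; the build named there is mm10, a mouse build, whereas all gene IDs are human. Settings, annotation release and strand use are not given in the sources used here. Per the labels' protocols, total RNA was extracted with Trizol and libraries made with a SMARTER mRNA kit. The summary lines in the files put 4.93% ± 0.196 of reads in no gene and 6.89% ± 0.0204 in more than 1 gene, and list 0 reads with several alignments; these lines were left out of library sizes. Reads of near-identical or overlapping genes can thus be missing. Symbols came from a gene name table (36366 IDs) and GENCODE 29 (219); 16 IDs had none.

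CPM, TPM (union exon length, GENCODE 29, GRCh38; 1985 genes without a length left out), ranks and counts of expressed genes were computed with Python 3.11.15, numpy 2.4.6 and pandas 2.3.3. No test was made, as there is 1 group. The spread was estimated with edgeR 4.0.16 in R 4.3.3 from an intercept-only fit, checked on simulated data; the common biological coefficient of variation was 0.0396 over 14568 genes, and no pair of libraries was identical. A gene's counting was called uncertain where over 50% of its exon bases, or of its 50-base windows, were shared with other genes: 22 of 957 list genes. The genes named were 6 markers, the 20 highest by TPM, up to 8 expressed and 8 absent members per list, all cell type markers, the 8 most variable genes and the 8 highest non-coding genes, with a few members added for their known role after their values were seen; some named by this rule are not reported here. The members, lists and this rule were chosen with earlier results of these data known. Alternatives were thresholds of 0.5 and 5 CPM or over 3 counts, TMM and DESeq2 1.42.0 size factors, other lengths, and leaving out each library.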

Additional observations from a re-analysis of the deposited data

How the results depend on the processing

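No paired analysis was possible because the results describe 1 group and come from no test. Of 84 alternative values of the main results, 77 stayed within the limits set for them and 7 did not. For counts of expressed genes the limit was 1.5 times. The cytokine count of 88 at over 3 counts, against 61 reported, thus stayed within it. At 5 CPM per library 59 lineage genes were expressed, against 93 at 1 CPM. The COL1A1 to COL1A2 ratio was 17.5 with the length of the longest transcript and 19.6 by CPM, against 22.3 per exon length (21.7 to 23.1 with a library left out). The ACTA2 share of the actins was 0.383% and 0.230% under these same settings, against 0.252% (0.246% to 0.259% with a library left out). The other ratios and shares between genes were not recomputed with other lengths, and their SDs do not cover that choice. Without mitochondrial genes the 100 most counted genes held 15.04% of counts, against 15.4% (15.4% to 15.5%). The coefficient of variation was 0.0369 without siNT3 and up to 0.0418 without siNT2, against 0.0396. TMM and DESeq2 size factors changed no count of expressed genes. The TMM factors lay between 0.997 and 1.002 and the DESeq2 sizes were close to the library sizes, so these settings could move few calls. With a library left out, a count of expressed genes can only stay or rise. Of 320 alternative counts over single lists, 304 lay within 1.5 times the count reported. Among those that did not, at 5 CPM 8 of the G protein-coupled receptors, 1 Toll-like receptor, 5 quiescent and 0 hepatocyte markers and 13 HOX genes were expressed, and at 0.5 CPM, 4 CC chemokines and 30 tyrosine kinase ligands. With the longest transcript, IGFBP5, COL1A1, AXL, COL3A1, PDGFRB and ACTA2 ranked 15, 20, 130, 165, 3449 and 4119; by CPM, 6, 7, 46, 45, 2175 and 7755. The depth limits absence to under about 0.172 CPM per library, and 9 of the 240 absent list genes have uncertain counts.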

Other observations

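Among genes that code for no protein, the 8 with the highest CPM were NORAD, NEAT1, MALAT1, MEG3, FGD5-AS1, NECTIN3-AS1, SNHG14 and OIP5-AS1, an order not scaled by length, and 820 of 15265 such genes were expressed. NORAD, a cytoplasmic RNA that binds Pumilio proteins, stood at 856, 898 and 848 CPM. NEAT1, the scaffold of paraspeckles, stood at 410.2, 505 and 563 CPM, lowest in siNT1 and highest in siNT3. MALAT1, of nuclear speckles, stood at 276, 296 and 314 CPM and MEG3, an imprinted RNA, at 190.2, 228 and 242 CPM, both also lowest in siNT1 and highest in siNT3. FGD5-AS1 (213 ± 6.99 CPM) and NECTIN3-AS1 (199 ± 3.93 CPM) are antisense genes. Exons of FGD5-AS1 overlap those of FGD5 and NR2C2, and as strand use in counting is not given, reads of the overlap cannot be told apart. SNHG14 had 179 ± 8.81 CPM and OIP5-AS1 146 ± 1.92 CPM. Of the mitochondrial transcripts, MT-CO1, a subunit of cytochrome oxidase, had 3585, 3876 and 4233 CPM and MT-ND4, of complex I, 1846, 1976 and 2204 CPM, in the same library order as NEAT1; what lies behind this order was not tested.

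The 8 most variable protein-coding genes at a mean of 10 CPM or more were FES, LY6G5B, ADRA2A, TMEM35B, ZSWIM4, NT5DC3, ZNF143 and HSF4, with means from 10.2 CPM for HSF4 to 16.5 CPM for LY6G5B. FES, a tyrosine kinase best known from myeloid cells, varied most, with 7.55, 12.3 and 12.9 CPM and an SD of 0.41 on the log2 scale. ADRA2A, an adrenergic receptor, had 11.8, 8.09 and 13.2 CPM. The median SD over 9697 genes was 0.06, and 0 genes exceeded 0.5. None of the 8 belongs to a list described above.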
